A study of Mus musculus with 2 samples.

Results

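The vascular microRNA genes Mir126a, Mir143, Mir145a, Mir221 and Mir222 were followed in the limb of the mouse embryo at 12.5 days of development. They were chosen by name, as microRNAs known in endothelium, in smooth muscle and in pericytes, with earlier results of these data known. By their identifiers they were found as 5 of the 1973 gene rows in the count tables. Small RNA shorter than 30 nucleotides was sequenced from 2 pools of limbs of the strain B6NCrl, both sexes together, with 88 embryos in replicate 1 and 68 in replicate 2. The labels name these pools as biological replicates of a single group, with no treatment or altered allele, so no contrast between conditions exists. Replicate 1 gave 4525636 counts on microRNA genes and replicate 2 gave 3604284. Levels are counts on the gene's own strand per 1000000 such counts (CPM), and values with ± are the mean and SD over the 2 libraries.

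MicroRNAs are short RNAs cut from a hairpin. They pair, mainly through the seed at bases 2 to 8, with messenger RNAs and lower their translation or stability. MiR-126 is made within the gene Egfl7, which encodes a protein secreted by endothelial cells, and is known for supporting vascular endothelial growth factor signalling and the integrity of embryonic vessels. MiR-143 and miR-145 come from 1 cluster, are known in vascular and visceral smooth muscle and in pericytes, and promote the contractile state of smooth muscle. MiR-221 and miR-222 come from another cluster, are known in endothelium, smooth muscle and blood progenitors, and lower the levels of the receptor Kit and of the cell cycle inhibitor Cdkn1b.

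The RefSeq table of mature microRNAs (GRCm38.p6) held entries for 3 of the 5 genes. The mature arms are shown because the seed decides which genes can be grouped by their targets, and the hairpins because the counts cover a whole hairpin and not an arm. In the mature arms, the capitals mark the seed.
miR-126a-3p, chr2:26591402-26591423, plus strand: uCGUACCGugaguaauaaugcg
miR-221-3p, chrX:19146307-19146329, minus strand: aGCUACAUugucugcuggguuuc
miR-221-5p, chrX:19146344-19146369, minus strand: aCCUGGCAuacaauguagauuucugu
miR-222-3p, chrX:19146901-19146923, minus strand: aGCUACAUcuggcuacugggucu
In the hairpins, the capitals mark the 3p arm.
Mir126a, chr2:26591357-26591429, plus strand: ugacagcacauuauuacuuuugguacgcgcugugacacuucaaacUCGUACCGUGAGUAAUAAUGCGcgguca
Mir221, chrX:19146294-19146388, minus strand: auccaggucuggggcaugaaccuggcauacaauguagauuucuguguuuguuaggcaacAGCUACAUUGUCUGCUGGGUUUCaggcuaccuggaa
Mir222, chrX:19146893-19146971, minus strand: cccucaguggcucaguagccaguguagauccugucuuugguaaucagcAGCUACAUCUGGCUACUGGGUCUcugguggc

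The 3p arms of Mir221 and Mir222 share their first 8 bases, the seed included, and were identical at 11 of 23 positions when laid side by side without gaps. The longest stretch that the whole hairpins share was 9 bases. Among the 1738 mature arms of the table, miR-1928 alone had the same seed as this pair, and its gene Mir1928 had 0 counts in both libraries. No other arm in that table had the seed of miR-126a-3p or of miR-221-5p. No hairpin of the 5 genes shared 20 bases or more with another microRNA hairpin elsewhere in the annotation. The longest shared stretch was 17 bases, between Mir145a and Mir145b, and Mir145b had 0 counts in both libraries, which allows up to 0.663 CPM in replicate 1 and 0.832 CPM in replicate 2.

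Mir126a was the highest of the 5 genes and Mir143 the next, and both stood far above Mir145a, Mir221 and Mir222. All 5 reached the detection threshold of 10 CPM in both libraries, where 14.5% of all gene rows did. Together they held 2.39% of the counts in replicate 1 and 2.48% in replicate 2. Mir126a made up 77.4% of these counts in replicate 1 and 78.2% in replicate 2, and Mir143 made up 21.9% and 21.3%. In a bulk tissue, fewer cells of a type and less RNA per cell cannot be told apart, and the tables hold microRNA genes only, so the cells behind these counts could not be checked against endothelial or smooth muscle messenger RNAs. Counts were not divided by hairpin length, since a small RNA read covers a mature arm. Ratios between genes are ratios of read counts, and how evenly different sequences were recovered was not tested.

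**Figure D1:**
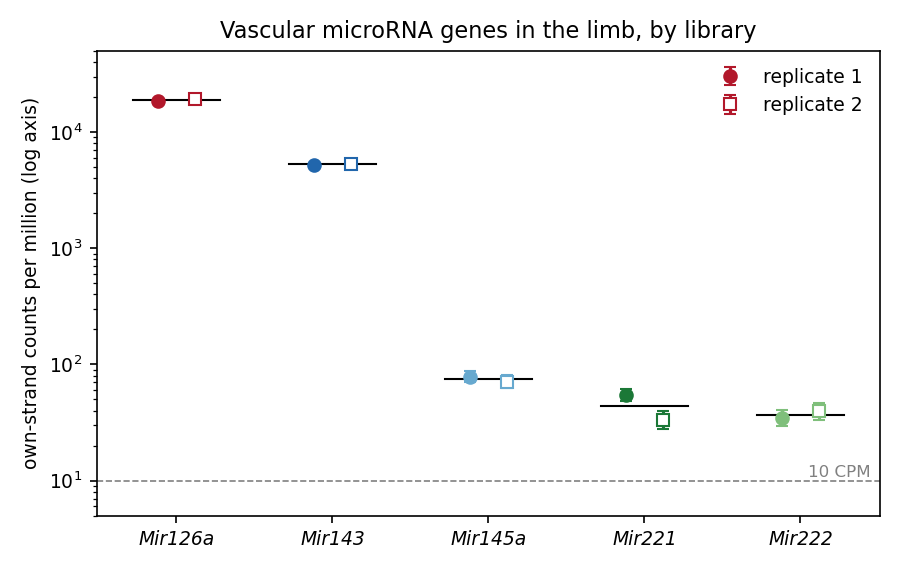
Level of each gene in CPM on a log axis, with filled circles for replicate 1, open squares for replicate 2, exact 95% Poisson intervals as bars, the mean as a black line and the threshold of 10 CPM as a dashed line. Mir126a and Mir143 sit at or above 5241 CPM in both libraries, and Mir145a, Mir221 and Mir222 lie between 33.3 and 78.7 CPM.

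Mir126a, the endothelial microRNA, lies on chromosome 2 (26591357 to 26591429, plus strand, mm10) inside Egfl7. Of 9 Egfl7 transcripts over the hairpin, 1 holds it in an exon, and that transcript is annotated as a retained intron. In the other 8 it is intronic, as it is in the 1 overlapping transcript of Gm20532. Mir126a stood at 18526 CPM in replicate 1 and 19409 CPM in replicate 2, or 18968 ± 624 CPM. Its place was 17th in replicate 1, 14th in replicate 2 and 15th by the mean. The genes directly above it by the mean were Mir30e (20958 ± 3411 CPM) and Mir10b of the HoxD cluster (20574 ± 218 CPM), and directly below were Mirlet7i (18881 ± 138 CPM) and Mir20a (17376 ± 2636 CPM). Mir30e, Mirlet7i and Mir20a differed from Mir126a by no more than the larger SD of each comparison, so their order is not resolved, while Mir10b stood above it by more than that spread.

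Mir143 and Mir145a lie on the minus strand of chromosome 18, at 61649196 to 61649258 and 61647825 to 61647894, with 1301 bases between them and Mir143 upstream. No transcript of another gene overlapped either hairpin. The nearest gene to Mir143 was Carmn, a long non-coding RNA on the same strand, 366 bases away, and the nearest to Mir145a was Bvht, a long non-coding RNA on the opposite strand, 352 bases away. Mir143 stood at 5241 CPM in replicate 1 and 5278 CPM in replicate 2, or 5259.7 ± 26 CPM, at place 43 by the mean. Its SD was 0.490% of the mean, the smallest among the 5 genes. Mir30a (5666 ± 552 CPM) and Mir431 (5391 ± 103 CPM) stood directly above it and Mir127 (5023 ± 200 CPM) and Mir21a (4806 ± 381 CPM) directly below, and of these only Mir30a lay within the larger SD of the comparison.

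Mir145a stood at 78.7 CPM in replicate 1 (356 counts) and 71.3 CPM in replicate 2 (257 counts), or 75.0 ± 5.2 CPM, at place 209. The exact 95% Poisson intervals were 70.7 to 87.3 CPM and 62.9 to 80.6 CPM, and they overlap. The genes around it, Mir34a (76.3 ± 22.7 CPM), Mir190a (75.6 ± 5.3 CPM), Mir138-2 (73.7 ± 17.9 CPM) and Mir452 (70.6 ± 1.8 CPM), all lay within the larger SD. Mir190a and Mir138-2 each share a stretch of 20 bases or more with another microRNA gene, so part of their reads may be missing from the counts.

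Mir221 and Mir222 lie on the minus strand of the X chromosome with 504 bases between them and Mir222 upstream. No transcript of another gene overlapped them, and the nearest gene, the non-coding Gm14636, lay 10592 bases from Mir221 and 10009 bases from Mir222. Mir221 stood at 54.8 CPM in replicate 1 (248 counts, interval 48.2 to 62.1) and at 33.3 CPM in replicate 2 (120 counts, interval 27.6 to 39.8), or 44.0 ± 15.2 CPM. The 2 intervals do not overlap. Mir222 stood at 34.5 CPM in replicate 1 (156 counts, interval 29.3 to 40.3) and at 39.7 CPM in replicate 2 (143 counts, interval 33.4 to 46.7), or 37.1 ± 3.7 CPM, and its intervals overlap. By the mean, Mir221 held place 234 and Mir222 place 241.

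At these levels many genes lie close together. Around Mir221 stood Mir3072 (44.7 ± 12.9 CPM), Mir666 (44.5 ± 2.3 CPM), Mir18b (43.9 ± 1.7 CPM) and Mir194-2 (43.7 ± 2.9 CPM). Around Mir222 stood Mir26a-2 (38.0 ± 0.70 CPM), Mir450-1 (37.2 ± 2.0 CPM), Mir29a (35.4 ± 9.99 CPM) and Mir153 (33.3 ± 5.1 CPM). All 8 lay within the larger SD of the comparison, and Mir194-2, Mir26a-2 and Mir450-1 share a stretch with another gene.

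**Figure D2:**
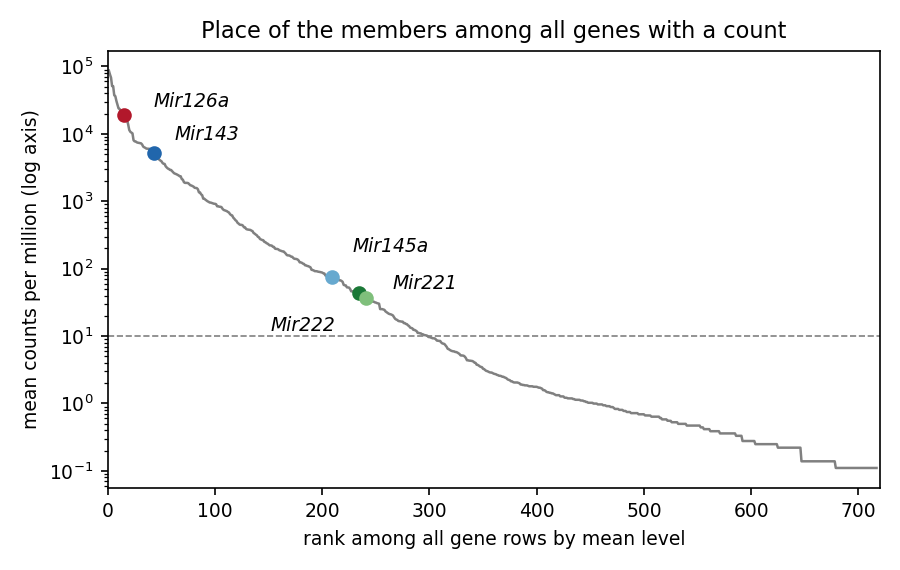
Mean CPM on a log axis against the rank among all gene rows, for genes with a count, with the 5 members as coloured points and the detection threshold of 10 CPM as a dashed line. Mir126a and Mir143 hold places 15 and 43, and Mir145a, Mir221 and Mir222 hold places 209, 234 and 241.

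The order Mir126a, Mir143, Mir145a held in both libraries, and Mir145a stood above Mir221 and Mir222 in both. The ratio of Mir126a to Mir143 was 3.53 in replicate 1 and 3.68 in replicate 2 (3.61 ± 0.10). Against the summed Mir143 and Mir145a counts the ratio was 3.56 ± 0.10. The ratio of Mir145a to Mir221 was 1.44 and 2.14 in the same order of libraries, and that of Mir145a to Mir222 was 2.28 and 1.80. The order of Mir221 and Mir222 was not resolved, since replicate 1 placed Mir221 higher and replicate 2 placed Mir222 higher. Mir221 and Mir222 were also added together because of their common seed. Their sum reached 89.3 CPM in replicate 1 and 73.0 CPM in replicate 2, or 81.1 ± 11.5 CPM. In both libraries this sum stood above Mir145a, at 78.7 CPM in replicate 1 and 71.3 CPM in replicate 2. The gap in replicate 2 was small, and the SD of the sum spans the mean of Mir145a (75.0 CPM). Whether the gap exceeds counting error was not tested.

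Within the miR-143 and miR-145 cluster the partners were far apart, and by about the same ratio in both libraries. Mir143 had 23721 counts against 356 for Mir145a in replicate 1, a ratio of 66.6 (exact 95% interval 60.0 to 74.2), and 19023 against 257 in replicate 2, a ratio of 74.0 (65.4 to 84.0). The mean ratio was 70.3 ± 5.2, and the intervals overlap. Mir145a held 1.48% of the cluster's counts in replicate 1 (interval 1.33 to 1.64) and 1.33% in replicate 2 (1.18 to 1.51). The identifiers of Mir143 and Mir145a carry an older version number in the tables than in the annotation used for coordinates, so the interval over which their reads were counted may differ from the one given here. Whether this touches the ratio was not tested.

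Within the miR-221 and miR-222 cluster the partners were close, and the higher partner changed. The ratio of Mir221 to Mir222 was 1.59 in replicate 1 (interval 1.30 to 1.95) and 0.839 in replicate 2 (0.653 to 1.08), with a mean of 1.21 ± 0.53. Mir221 held 61.4% of the pair's counts in replicate 1 (interval 56.4 to 66.2) and 45.6% in replicate 2 (39.5 to 51.9). These intervals do not overlap, and the interval of replicate 2 includes equal shares while that of replicate 1 does not. They cover counting error only, since reads copied by PCR are not independent molecules.

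**Figure D3:**
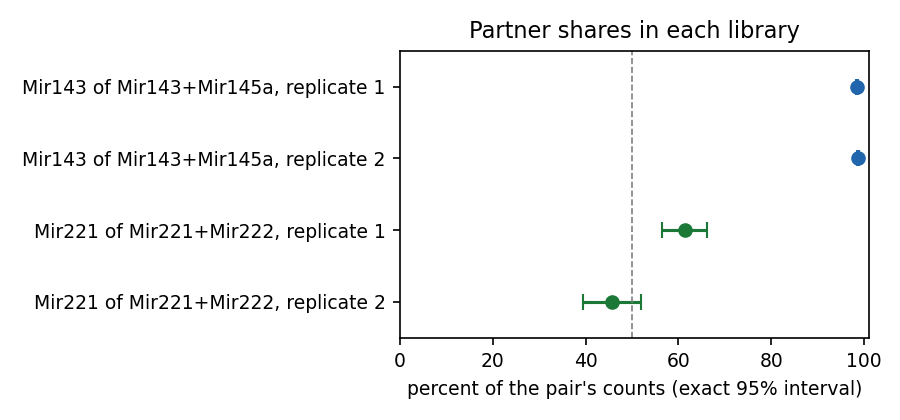
Percent of a cluster's counts on Mir143 (of Mir143 and Mir145a) and on Mir221 (of Mir221 and Mir222) in each library, with exact 95% intervals and equal shares as a dashed line. Mir143 holds nearly all counts of its cluster in both libraries, and Mir221 moves from 61.4% in replicate 1 to 45.6% in replicate 2.

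To place these ratios, every pair of microRNA genes next to each other on 1 strand, at most 10 kb apart and both detected, was measured in the same way. There were 87 such pairs, and since neighbouring pairs in a long cluster share a gene they are not independent. The higher gene exceeded the lower by a median of 6.84 times, and 33 pairs exceeded 10 times. The Mir143 and Mir145a pair was 10th in this order, between Mir542 with Mir450-2 (79.2 times) and Mirlet7d with Mirlet7a-1 (68.0 times). The extremes of the order were Mir20a with Mir19b-1 (692 times) and Mir181c with Mir181d (1.00 times). Of the 9 pairs above Mir143 and Mir145a, 8 included a gene that shares a stretch with another microRNA gene and may have lost reads that map to both. Among the 56 pairs without such a gene, Mir143 and Mir145a were 2nd, after Mir20a with Mir19a (142 times).

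The Mir221 and Mir222 pair was 83rd of the 87, between Mir27a with Mir24-2 (1.33 times) and Mir302a with Mir302d (1.18 times), where 19 pairs in all lay under 2 times. It was among the 3 pairs whose higher gene differed between the libraries. Its ratio moved by 1.89 times between the libraries and that of Mir143 and Mir145a by 1.11 times, against a median of 1.22 times over the pairs. A move of over 1.5 times was seen in 20.7% of the pairs, and 4 pairs moved by more than Mir221 and Mir222. Only 4 pairs, Mir221 and Mir222 included, had both genes under 100 CPM. Of these, 2 moved by over 1.5 times, and the higher gene differed in 1, which was Mir221 and Mir222.

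**Figure D4:**
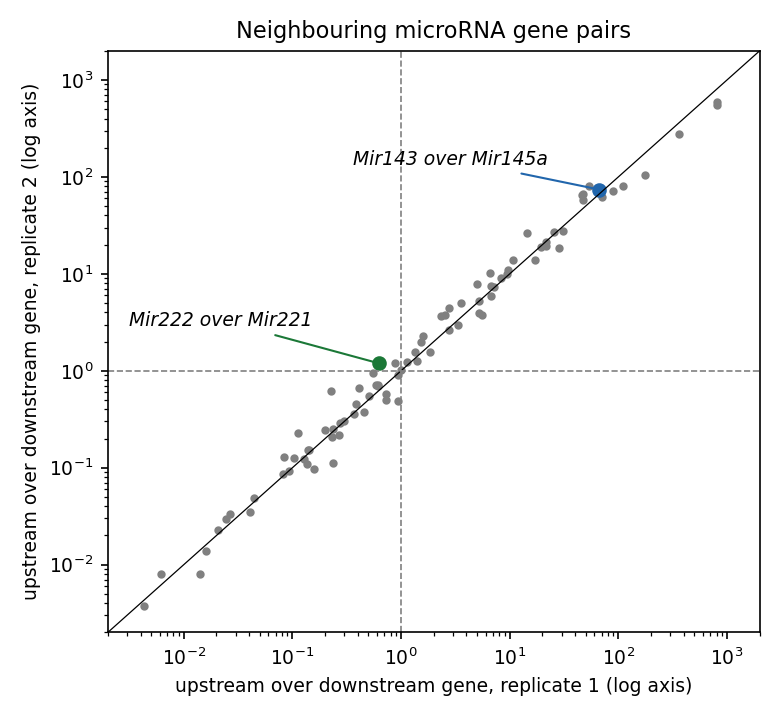
Ratio of the upstream to the downstream gene in each of 87 neighbouring microRNA pairs, replicate 1 on the horizontal and replicate 2 on the vertical log axis, with the diagonal of equal ratios and dashed lines at 1. Mir143 over Mir145a lies close to the diagonal among the larger ratios, and Mir222 over Mir221 lies above the diagonal, on opposite sides of 1 in the 2 libraries.

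Between the libraries, 4 of the 5 genes lay within 1.5 times and Mir221 did not. The log2 ratio of replicate 2 over replicate 1 (0.5 counts added, SE from counting error) was 0.07 (SE 0.0074) for Mir126a, 0.01 (SE 0.014) for Mir143, -0.14 (SE 0.12) for Mir145a, 0.20 (SE 0.17) for Mir222 and -0.72 (SE 0.16) for Mir221. Mir221 was 1.65 times higher in replicate 1, and Mir126a was 1.05 times higher in replicate 2, a small difference that was nonetheless larger than its counting error. Mir221 was the only member over 1.5 times apart. Among the 77 genes from 20 to under 100 CPM, 13.0% were over 1.5 times apart, and 4 were further apart than Mir221. Mir126a and Mir143 belong to the 189 genes at 100 CPM or more, of which 8.99% were over 1.5 times apart. The median over these 189 genes was 1.14 times apart. The SD of their log2 ratios was 0.325, above their median counting SE of 0.033, so a difference larger than counting error is not particular to Mir126a. With 1 library on each side these differences have no test.

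**Figure D5:**
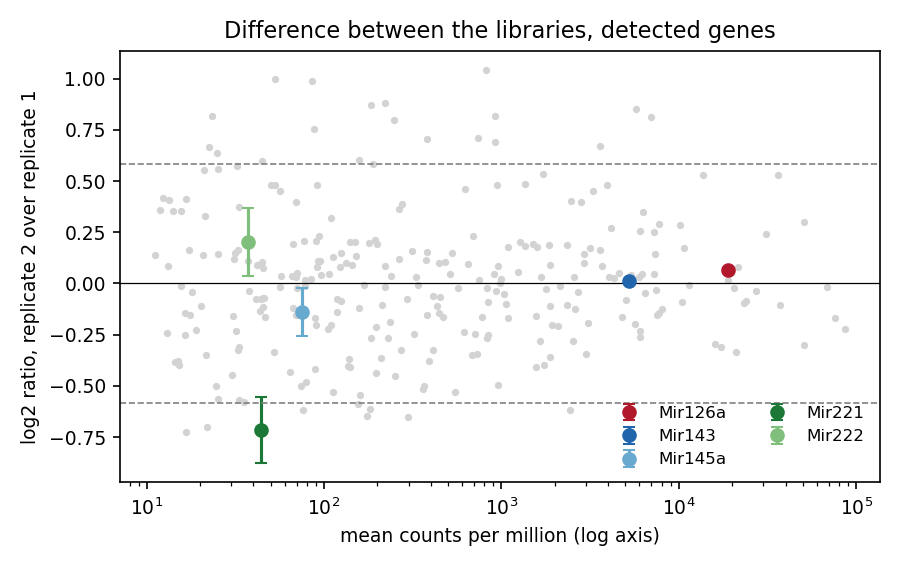
Log2 ratio of replicate 2 over replicate 1 against mean CPM on a log axis, for all detected genes in grey and the 5 members in colour with SE bars from counting error. Dashed lines mark 1.5 times, and Mir221 lies below the lower line at -0.72 while the other members lie between the lines.

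Markers of other cell types moved between the libraries in part. Of the red blood cell genes, Mir451a was lower in replicate 2 (174 ± 54 CPM, log2 ratio -0.65), as Mir221 was. Mir144, the neighbour of Mir451a, was lower too (21.9 ± 7.4 CPM, -0.70), while Mir486 was higher (22.6 ± 7.3 CPM, 0.67). At Mir486, 19 of 98 counts in replicate 1 and 5 of 105 in replicate 2 lay on the opposite strand, which its level does not use. All 3 genes were over 1.5 times apart, against 9.79% of the 286 detected genes. The summed level of these 3 genes was 257 CPM in replicate 1 and 180 CPM in replicate 2. Of the white blood cell and platelet markers, Mir155 (338 ± 1.1 CPM) and Mir223 (275 ± 52 CPM) were detected, Mir150 (4.32 ± 1.74 CPM) was not, Mir142 had no row, and the summed level of the 3 measured genes was 581 and 655 CPM. The part of blood cells in the levels of Mir126a, Mir221 and Mir222, which are also known in blood progenitors, was not tested. Each gene listed for cartilage, ectoderm and skeletal muscle was detected. For these lists, as for the white blood cell and platelet list, the share over all gene rows was 14.5%. Detection holds for the genes picked. Left off the muscle list, Mir1a-1 (2.43 and 0 CPM) and Mir1b (1.77 and 3.88 CPM) missed the threshold. Both share a stretch with another microRNA gene and may have lost reads. In replicates 1 and 2 the summed levels were 26021 and 25204 CPM for cartilage (Mir140 and Mir455). They were 13479 and 13673 CPM for ectoderm (Mir205, Mir203 and Mir200c). For skeletal muscle (Mir206, Mir208b, Mir133b and Mir499) they were 2319 and 2605 CPM. Single genes set some of these sums. The muscle sum was higher in replicate 2 through Mir206 (2196 and 2498 CPM), while the log2 ratio was -0.07 for Mir208b, -0.11 for Mir133b and -0.56 for Mir499. The cartilage sum was lower in replicate 2 through Mir140 (24621 and 23178 CPM), while Mir455 was 1.45 times higher there.

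Other microRNAs listed for roles in endothelium or vessel growth were detected wherever they had a row. Of 29 genes listed, 26 had a row. These 26 were all at 10 CPM or more in both libraries, against 14.5% of all gene rows. Their median was 2757 CPM, against 0 CPM over all gene rows and 269 CPM over the 286 detected genes. Of the 26, 11 share a stretch with another microRNA gene and may have lost reads, where 67 of the 286 detected genes share one. The lists, like the members, were chosen with earlier results of these data known. Many of the 26 genes are known in other tissues as well, so their levels are not a measure of endothelium. The highest were Mir322 of the Mir322 and Mir503 cluster (68344 ± 659 CPM), Mir17 of the miR-17-92 cluster (50945 ± 7438 CPM), Mir23b (36314 ± 9350 CPM, with a shared stretch) and Mir130a (27130 ± 477 CPM). With Mir10b, these were the 5 list genes above Mir126a. Between the libraries, 0 of the 26 were over 1.5 times apart, against 28 of the 286 detected genes (9.79%), and their median log2 ratio was 0.01. The genes Mir24-1, Mir378a and Mir126b had no row and were not analysed here.

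Of the 18 genes listed for smooth muscle, pericytes and the vessel wall, 17 had a row and 14 of these were detected, against 14.5% of all gene rows. Their median level was 76.3 CPM over the 17 measured genes, against 0 CPM over all gene rows. Over the 14 detected genes it was 151 CPM, below the 269 CPM over all detected genes. Of the 17, 9 share a stretch with another microRNA gene and may have lost reads, where 929 of all 1973 gene rows share one. The 9 include the undetected Mir26a-1 and Mir29b-1. Among the 286 detected genes, 67 share a stretch. How far lost reads lower these medians was not tested. The median log2 ratio over the 14 was -0.16. Of the 14, Mir34a alone was over 1.5 times apart (1.53 times), against the same 9.79% of detected genes. The highest were Mir214 (51056 ± 7523 CPM), which is known throughout limb mesenchyme, Mir21a (4806 ± 381 CPM), Mir125b-1 (1858 ± 169 CPM, with a shared stretch) and Mir199a-2 (551 ± 141 CPM, with a shared stretch). Only Mir214 stood above Mir143. Mir26a-1 (11.0 ± 2.2 CPM) and Mir29b-1 (1.03 ± 0.51 CPM), which have near copies, and Mir145b with 0 counts missed the threshold. Mir497a had no row and was not analysed here.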

How the data were processed

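Small RNA of 2 limb pools was sequenced. Per the README deposited with each library, the authors aligned reads to mm10 and counted them on the genes of annotation M4. The deposited values are whole-number read counts per gene, without normalization. Aligner, counter and trimming were not given in the sources used here. Of 3 count columns, the 1st equalled the sum of the others in every gene, and the 2nd was read from its values as the gene's own strand. Totals exclude 4 rows without a gene, which held 57.5% of the reads in replicate 1 and 63.0% in replicate 2. Reads mapping to several places (27.2% and 23.7%) are among them.

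Identifiers were matched without version to GENCODE M21 (1894 of 1973 rows). A gene said to have no row had no matched row, and whether it is among the 79 unmatched rows was not tested. CPM, ratios, exact Clopper-Pearson and Poisson intervals and log2 ratios were computed with Python 3.11.15 and SciPy 1.17.1, and scaling factors with edgeR 4.0.16 and DESeq2 1.42.0. Intervals cover counting error only. The log2 ratio was checked on counts drawn with known changes and with counting error only. That check covers the calculation and cannot show whether the SE describes the spread between these libraries. A single group has no contrast, so no p-value was computed.

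Named are the 5 members, the 2 genes above and below each in level, genes with a member's seed, microRNA genes within 10 kb, the pairs next to the member pairs and at both ends, and from each list the 4 highest and the undetected genes. The members and lists were chosen with earlier results of these data known. Alternatives were single libraries, summed counts, both strands, other totals and scalings, other level minima, and other definitions of a pair.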

Additional observations from a re-analysis of the deposited data

Results flagged for a closer look

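Counts opposite to Mir126a stood at 3.76 CPM in the mean, above what a count of 0 allows in both libraries (3 counts, 0.663 and 0.832 CPM), in a column that the levels do not use. They were 24 counts in replicate 1 and 8 in replicate 2, or 0.0286% (exact 95% interval 0.0183 to 0.0426) and 0.0114% (0.00494 to 0.0225) of the counts on both strands there. The annotated gene Mir126b lies on that strand, and its hairpin of 58 bases is the reverse complement of part of the Mir126a hairpin.
microRNA Mir126b, chr2:26591363-26591420, minus strand, with its 3p arm in capitals: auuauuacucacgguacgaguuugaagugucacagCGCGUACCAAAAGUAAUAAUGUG
Mir126b had no row, so whether these reads came from it was not tested. For Mir143, Mir145a, Mir221 and Mir222 that column held 0 counts in each library.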

How the results depend on the processing

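The order Mir126a, Mir143, Mir145a held in each library. The Mir143 to Mir145a ratio ranged from 66.6 to 74.0 with either library left out and was 78.1 per hairpin base, a setting added after seeing the data, since the hairpins have 63 and 70 bases. The Mir221 to Mir222 ratio ranged from 0.839 without replicate 1 to 1.59 without replicate 2, so its direction rests on the library, and the cause was not tested. Of the 5 members, 2 were at 100 CPM or more in both libraries. The log2 ratio of Mir143 turned from 0.01 to -0.0099 with TMM and -0.012 with median of ratios scaling, within its counting SE. That of Mir126a fell from 0.067 to 0.047 with TMM and 0.046 with median of ratios scaling. The number of genes over 1.5 times apart was 17 of 189 at 100 CPM, 33 of 298 at 10 CPM, 331 of 717 with any count and, also added after seeing the data, 10 of 77 from 20 to under 100 CPM, as other genes were counted. Pairs with a larger ratio than Mir143 and Mir145a fell from 9 to 1, and those with a larger ratio than Mir221 and Mir222 from 82 to 52, when the 31 pairs with a shared stretch were left out. With a minimum of 100 CPM for both genes neither cluster could be placed. Per 1000000 of all reads, the levels were lower for all 5 members (7529 for Mir126a). No paired analysis was possible because there is 1 group. Mir145a, Mir221 and Mir222 rest on 120 to 356 counts in a library, which limits their precision.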

Other observations

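Across the 87 neighbouring pairs, the upstream gene was the higher one in 46, as in Mir143 with Mir145a, so neither position led throughout. Besides Mir221 and Mir222, the pairs whose higher gene differed between the libraries were Mir374b with Mir421, whose upstream to downstream ratio was 0.873 in replicate 1 and 1.22 in replicate 2, and Mir181c with Mir181d, at 0.990 and 1.01. The pair that moved most between the libraries was Mir181a-2 with Mir181b-2, from 0.227 to 0.612, and it shares a stretch with other genes. These pairs were named after their values were seen.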
